A study of Mus musculus with 2 samples.

Results

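The mouse microRNA genes numbered 6900 to 7099 were examined in microRNA-seq libraries of embryonic liver. The members were every gene of the deposited tables whose GENCODE M21 symbol is Mir followed by a number in that range, with any suffix. There were 175 of them among the 1973 genes of the tables, which is 8.87%. The annotation holds 197 genes in the range, and the other 22 were not analysed here. Mir6973a, Mir6973b and Mir7036b carry a letter and Mir7094-2 carries a second number. The samples were liver of B6NCrl mouse embryos at 14.5 days, with no treatment or engineered allele in the labels, as 1 group of 2 libraries (replicates 1 and 2). The labels call each sample the liver of a single pup, collected on different days, yet give both a mixed sex and the same donor, so the independence of the 2 animals is not clear and the spread between the libraries may be partly technical. There is no second condition, so no comparison of conditions was possible.

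MicroRNAs are RNAs of about the length of the short reads counted here, cut from hairpins and loaded into Argonaute proteins, where the seed near the 5′ end pairs with target messages. Most hairpins are first cut out of a longer transcript by the nuclease Drosha and then trimmed by Dicer. Splice-made microRNAs, called mirtrons, skip the Drosha cut: the intron of a host gene is spliced out, opened by the debranching enzyme and folds into the hairpin itself, so that the hairpin's ends are the splice sites. In tailed mirtrons only 1 end of the hairpin is a splice site, and the rest of the intron is a tail that must be trimmed away.

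Each member was read as a hairpin placed on the introns of same-strand host genes. The 9 hairpins set out here are those with the most counts and the intron-filling ones with the next most, on GRCm38 (mm10), written 5′ to 3′ from the GENCODE M21 transcripts. Capitals mark the first 2 and the last 2 bases of the intron wherever they fall inside the hairpin.
Mir6936, the 5′ end of an intron of Sirt7, chr11:120624823-120624876, minus strand: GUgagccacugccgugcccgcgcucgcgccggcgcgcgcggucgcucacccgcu
Mir6944, a whole intron of Dbn1, chr13:55477681-55477776, minus strand: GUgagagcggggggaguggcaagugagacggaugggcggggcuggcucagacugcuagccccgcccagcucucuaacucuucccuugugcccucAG
Mir7064, the 3′ end of an intron of Cars, chr7:143570671-143570759, minus strand: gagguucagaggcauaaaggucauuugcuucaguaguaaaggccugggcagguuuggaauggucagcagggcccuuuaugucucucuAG
Mir7036b, inside an intron of Add1, chr5:34574151-34574213, plus strand: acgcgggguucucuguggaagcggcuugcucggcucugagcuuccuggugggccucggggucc
Mir6971, the 3′ end of an intron of Skiv2l, chr17:34841809-34841871, minus strand: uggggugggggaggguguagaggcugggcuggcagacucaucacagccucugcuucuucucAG
Mir7069, the 3′ end of an intron of Farsa, chr8:84867947-84868008, plus strand: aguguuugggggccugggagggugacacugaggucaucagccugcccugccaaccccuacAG
Mir7059, the 3′ end of an intron of Cln3, chr7:126579474-126579532, minus strand: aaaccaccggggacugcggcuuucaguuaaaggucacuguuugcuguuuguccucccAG
Mir7091, a whole intron of Dnase1l1, chrX:74274027-74274105, minus strand: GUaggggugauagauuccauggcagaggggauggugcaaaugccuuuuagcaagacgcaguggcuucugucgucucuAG
Mir7068, a whole intron of Cherp, chr8:72470016-72470089, minus strand: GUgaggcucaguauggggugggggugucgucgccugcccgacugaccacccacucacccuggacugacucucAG
Mir6944, Mir7091 and Mir7068 carry capitals at both ends, the 4 of Cars, Skiv2l, Farsa and Cln3 at the 3′ end, Mir6936 at the 5′ end, and Mir7036b at neither.

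Replicate 1 had 2353946 same-strand gene counts from 6395680 reads and replicate 2 had 3132763 from 8068090. Levels are given in CPM, the count divided by that total and scaled to 1000000, so that 1 count was 0.42 CPM in replicate 1 and 0.32 CPM in replicate 2. A count of 0 allows up to 3 counts as a one-sided 95% limit, or 1.27 and 0.958 CPM. The two-sided exact Poisson 95% interval of 0 counts reaches 1.567 and 1.178 CPM. The liver microRNA Mir122 stood at 97348.5 and 110370.6 CPM. The erythroid Mir451a stood at 38019.6 and 30243.0 CPM, the endothelial Mir126a at 61517.1 and 57654.2 CPM and the myeloid Mir223 at 10497.7 and 9885.2 CPM, so markers of blood and vessel cells were present beside that of hepatocytes. Of the neural markers, Mir137 differed between the libraries, at 242 and 22.3 CPM. Mir128-1, at 150 and 131.8 CPM, and Mir132, at 100.3 and 78.52 CPM, were much closer between them. Of the muscle markers, Mir499 stood at 272.7 and 258.2 CPM, Mir206 at 31.01 and 14.05 CPM and Mir208b at 6.797 and 4.15 CPM. Of the pancreas and gut markers, Mir375 stood at 923.1 and 973.3 CPM and Mir7-1 at 238.7 and 209.4 CPM. In such bulk tissue, fewer cells of a type and less RNA per cell cannot be told apart.

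Every one of the 175 members lay within or across a same-strand host gene, and for 174 of them, 99.4%, a host was protein-coding. Of the 1719 other annotated microRNA genes of the tables, 858 had a same-strand host, or 49.9%. The members were spread over 19 chromosomes, and no host held more than 2 of them. Skiv2l, which codes for an RNA helicase of the cytoplasmic exosome pathway, held Mir6970 and Mir6971. Srebf1, which codes for a transcription factor of lipid synthesis, held Mir6921 and Mir6922, and the other hosts of 2 members were Arap3, Cmip and Gm20388.

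Few of the members filled a whole intron, and most stood at an intron's 3′ end. With both ends within 5 bases of the ends of 1 intron, 15 of 175 filled it (8.57%), against 8 of the 1719 others (0.465%), and the share over all 1894 annotated microRNA genes was 1.21%. In 14 of the 15 both ends were exact. A further 148 members, 84.6%, reached only the intron's 3′ end, against 33 of the others, 1.92%. Together, 163 members, 93.1%, ended at the 3′ end of an intron, which is where the spliceosome finds its acceptor site, against 41 of the others (2.39%) and 10.8% of all annotated microRNA genes. For 162 members that end was exact to the base, and for 24 of the others. The definition of filling decided the first count: allowing 20 bases at each end gave 32 members, and asking for only 1 end within 5 bases gave 167. No allowance from 0 to 20 bases took the count at the intron's 3′ end below 162 or above 173.

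**Figure D1:**
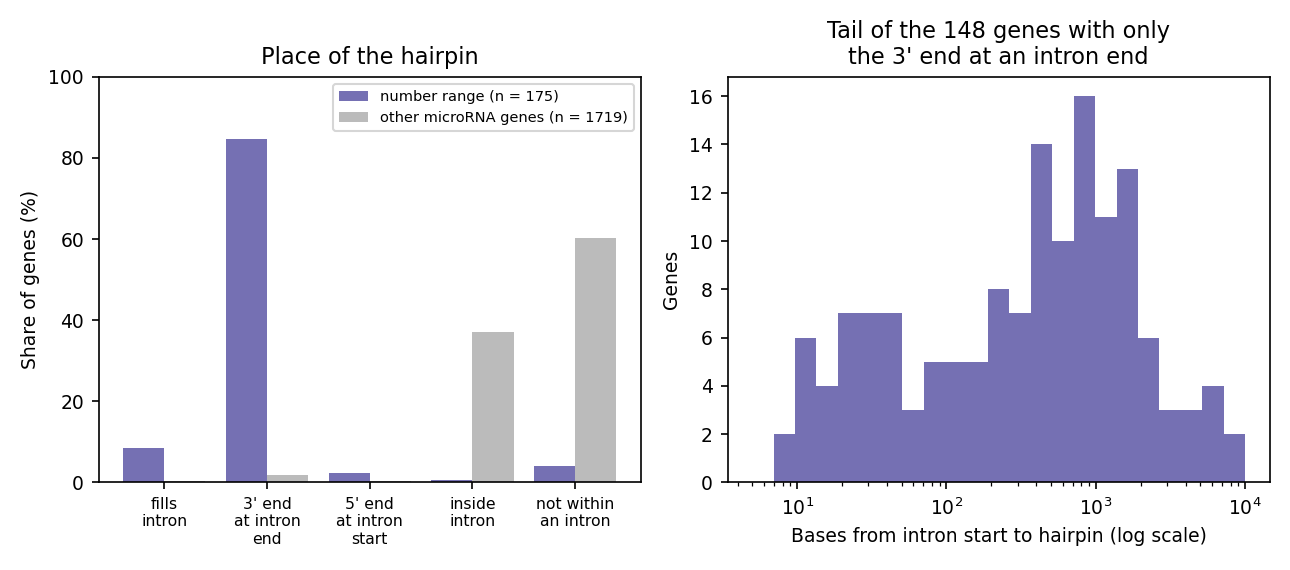
Left, bars give the share of genes (%) by the place of the hairpin in a same-strand host intron, for the 175 genes of the number range and the 1719 other annotated microRNA genes. The bar for only the 3′ end at an intron end reaches 84.6% in the number range and 1.92% in the others. Right, the number of genes by the bases between the intron's start and the hairpin (log axis) for the 148 members of that class, from 7 to 9128 bases.

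The 148 members with only the 3′ end at a splice site left a stretch of intron before the hairpin, and its length varied widely. The shortest was 7 bases, the median 419.5 and the longest 9128. Where several annotated introns ended at the same base, the shortest was taken, so longer stretches in other transcripts are not shown. It was at most 30 bases in 25 members, at most 100 in 41 and above 1000 in 42. Mir7069 in Farsa, which codes for a subunit of phenylalanyl-tRNA synthetase, had 28 bases before the hairpin and Mir6971 had 72. Mir7059 in Cln3, the gene of a lysosomal membrane protein, had 611, and Mir7064 in Cars, the gene of cysteinyl-tRNA synthetase, had 724. The median intron of this class was 484.5 bases long, while the 15 filled introns ran from 67 to 137 bases with a median of 83.

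Only 12 members did not end at an intron's 3′ end, and 7 of those ran 6 or 7 bases past it into the exon: Mir6901, Mir6903, Mir6904, Mir6914, Mir6950, Mir7029 and Mir6973b. Mir6903 is shown because its splice acceptor lies inside the annotated hairpin, with the intron's last 2 bases in capitals.
Mir6903, at an intron of Atp2b4, chr1:133726558-133726645, minus strand: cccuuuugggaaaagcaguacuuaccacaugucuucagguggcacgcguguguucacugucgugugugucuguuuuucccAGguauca
Mir7025 spanned an exon and intron of Pdgfra, the gene of a growth factor receptor. Mir6936, Mir6927 and Mir6977 began at the 5′ end of introns of 66, 88 and 79 bases in Sirt7, Mllt6 and Ptprs and stopped 12, 17 and 15 bases before the end. Mir7036b was the only member that lay within an intron with neither end at a splice site, 237 bases into an intron of 24255 bases in Add1. Add1 codes for adducin, a protein of the membrane skeleton. The bases of a member could also be exon: 39 members overlapped an exon of at least 1 same-strand transcript, among them Mir6936, Mir7036b and Mir7025. Exons beside the intron itself count here, so the 7 that ran past it are among the 39.

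The members' sequences carried the marks of the place they occupy, and position and sequence are not independent here, since a hairpin that ends where an intron ends must end as introns do. AG closed 162 member hairpins (92.6%) and 116 of the others (6.75%). The 3 last bases were CAG in 140 members and UAG in 20, together 91.4%, against 3.37% of the others. GU opened 31 members (17.7%) and 98 of the others (5.7%). Over positions 3 to 20 from the 3′ end, pyrimidines (C and U) made up 78.2% of the bases in members and 51.5% in the others, which is the polypyrimidine run that precedes an acceptor site. The run can be read in cuucuucuc before the closing AG of Mir6971. At the 5′ side guanine was common, peaking at 62.3% at position 9 against 29.5% in the others.

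**Figure D2:**
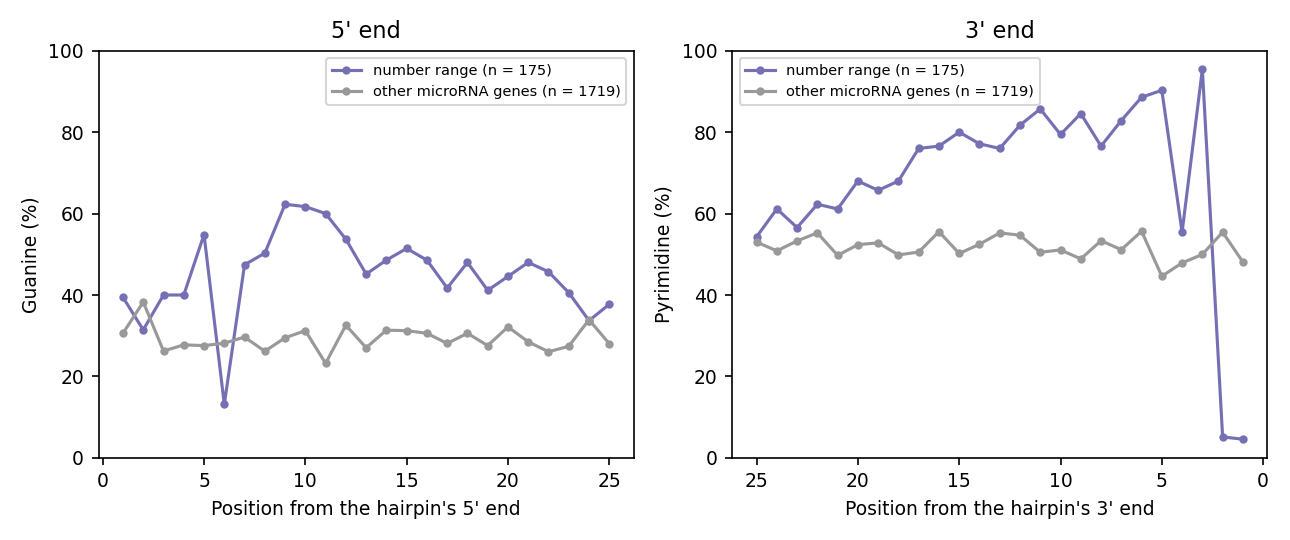
Share of guanine (%) by position from the hairpin's 5′ end (left) and share of pyrimidine (%) by position from its 3′ end (right), for the 175 members and the 1719 other microRNA genes. In the members guanine peaks at 62.3% at position 9 and dips to 13.1% at position 6, and pyrimidine is at 95.4% at position 3 from the 3′ end, just before the AG.

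RefSeq (GRCm38.p6) gave mature sequences for 160 members, 306 in all, and none for Mir6950 to Mir6954, Mir6970 to Mir6972, Mir6979 to Mir6983, Mir7040 and Mir7064. The 5p arms (n = 154) had a median guanine content of 45.5% and the 3p arms (n = 152) a median pyrimidine content of 71.4%, against 27.3% in 464 5p arms and 54.5% in 470 3p arms of other genes. Of the 3p arms 114 (75%) ended on the hairpin's last base, against 86 (18.3%) in the others. In 113 of the 114 that base was also exactly the last base of an intron, and the other was Mir7036b. The 5p arm began at base 6 of the annotated hairpin in 119 members (77.3%), against 7.54% of the others, and at base 1 in 22. The annotated 5′ end of the hairpin was thus in most members a fixed step before the mature arm, which bears on the tail lengths given above. Member hairpins were short, with a median of 66 bases against 94, and richer in G and C, with a median of 57.9% against 50%. Folded with RNAfold, their median free energy was -40 kcal/mol per 100 bases against -37.38, and the middle ranges overlapped (-44.72 to -35.8 and -44.94 to -30.66).

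The matures of the members whose counts are given first below are set out with the seed, bases 2 to 8, in capitals.
miR-6936-5p: gUGAGCCAcugccgugcccgc
miR-6936-3p: cGGCGCGCgcggucgcucacc
miR-6944-5p: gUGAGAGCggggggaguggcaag
miR-6944-3p: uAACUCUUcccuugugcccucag
miR-7036b-5p: aCGCGGGGuucucuguggaagc
miR-7036b-3p: uUCCUGGUgggccucggggucc
miR-7069-5p: uUGGGGGCcugggagggugacac
miR-7069-3p: cCUGCCCUgccaaccccuaca
miR-7059-3p: uGUUUGCUguuuguccucccag
miR-7068-3p: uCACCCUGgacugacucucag
In Mir6944 the 5p arm starts with the intron's own GU and the 3p arm stops on its AG, so both arms reach a splice site. The 306 member matures held 281 different seeds, and 21 seeds were shared by 2 or more member matures. Seed CACCCUG was shared by miR-7018-3p, miR-7023-3p and miR-7068-3p, and seed GGGCUGA by miR-6911-5p, miR-7028-5p and miR-7079-5p. Of the member matures, 43 had a seed of some microRNA outside the range. The seed CUGCCCU of miR-7069-3p is also that of miR-18a-3p, a passenger arm of the miR-17-92 cluster, and seed GAGGGGC of miR-6921-5p is that of miR-423-5p. A shared seed is a match of letters, and no target was measured here.

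The members were counted rarely but widely. Their summed same-strand count was 257 in replicate 1 and 356 in replicate 2, which is 109 and 114 CPM (111 ± 3.15, SD, n = 2), or 0.0109% and 0.0114% of all counts. The ratio of replicate 2 to replicate 1 was 1.041 with an exact 95% interval of 0.884 to 1.227, and the intervals given here cover counting error only, since reads without molecular identifiers are not independent molecules. At least 1 count in either library was found for 121 members (69.1%), and the other 54 had none. That share was 35.5% over all genes of the tables and 32.2% outside the range. It was 66.8% in other microRNA genes with a same-strand host and no stretch of 20 bases shared with another hairpin. At least 1 count in each library was found for 65 members (37.1%). The same held for 27.5% of all genes of the tables, for 46.9% of the 799 other microRNA genes that share no stretch of 20 bases with another hairpin, and for 55.8% of the 473 of these with a same-strand host. At least 10 counts in each library, the threshold used for detection, were found for 4 members (2.29%), against 16.8% of all genes and 18.2% of the genes outside the range. With a threshold of 3 counts in each library 27 members passed, and with 30 none did.

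No member was abundant. Over both libraries together 36 members had 1 count, 52 had 2 to 5, 29 had 6 to 19 and 4 had 20 or more. The 20 highest members held 51.9% of the members' counts, and the highest 5 held 21.5%. The highest member by mean CPM ranked 313 among all genes, and the 4 detected members had means of 4.04 to 6.27 CPM, where the median of all 332 detected genes was 172.6 CPM. CPM was not divided by length. The annotated mature arms had a median length of 22 bases in members and in the others. Whether the reads counted were those arms was not analysed here.

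The members with counts in 1 library did not always have them in the other. In replicate 1, 86 members had a count and in replicate 2, 100 had one; 65 had one in both, 21 in replicate 1 only and 35 in replicate 2 only. None of the members with a 0 in 1 library had more than 5 counts in the other. Mir7007 in Cpa3, the gene of a mast cell protease, and Mir6993 in Fads1, the gene of a fatty acid desaturase, had the highest such counts, with 0 in replicate 1 and 5 in replicate 2. The exact Poisson 95% interval of 0 counts in replicate 1 reaches 1.567 CPM. The 5 counts in replicate 2 are 1.6 CPM (exact Poisson 95% interval for Mir7007 0.518 to 3.73). These intervals overlap, but overlap is not a test, and whether either gene differed between the libraries was not tested. Among 267 genes outside the range with 1 to 34 counts in all, the span of the members that had a count, 61.8% had a count in each library, against 53.7% of the 121 members with any. The median count in all was 4 in those genes and 3 in these members, so the sets were not matched in level.

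**Figure D3:**
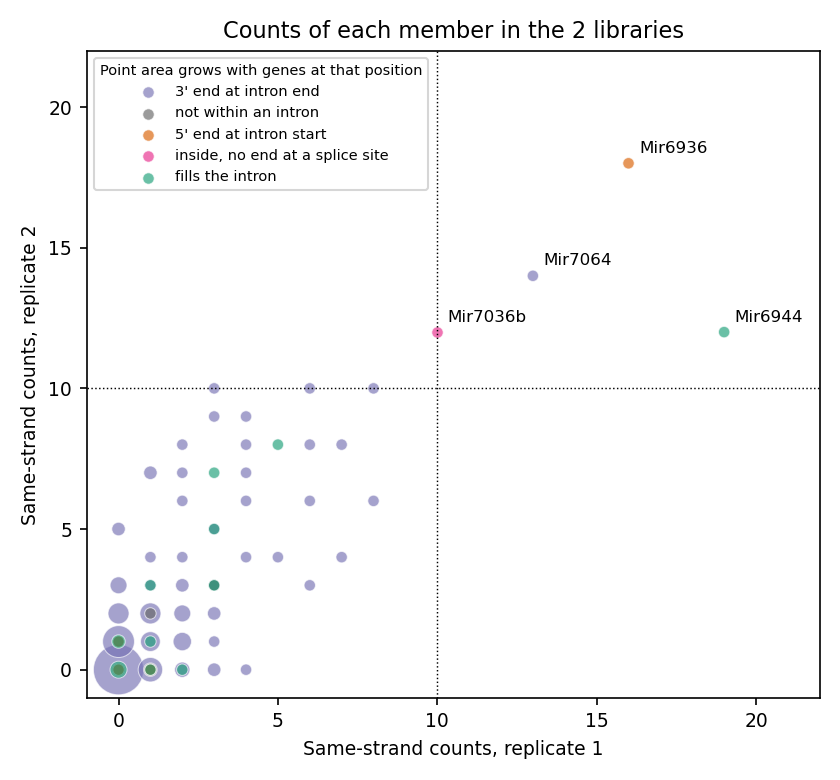
Same-strand counts of the 175 members in replicate 1 (x axis) and replicate 2 (y axis), with point area growing with the number of genes at a position and colour giving the place in the intron. Dotted lines mark 10 counts, and only Mir6936, Mir6944, Mir7064 and Mir7036b lie at or above both.

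The 4 detected members belonged to 4 different places in the intron. Mir6936, at the 5′ end of an intron of the deacetylase gene Sirt7, had 16 counts in replicate 1 and 18 in replicate 2, or 6.8 and 5.75 CPM (6.27 ± 0.743, SD, n = 2). Mir6944, which is a whole intron of 96 bases in Dbn1, the gene of the actin-binding protein drebrin, had 19 and 12 counts, or 8.07 and 3.83 CPM (5.95 ± 3, SD, n = 2). Mir7064 in Cars had 13 and 14 counts, or 5.52 and 4.47 CPM (5 ± 0.745, SD, n = 2). It was the only one of the 148 members at an intron's 3′ end alone to reach the threshold. Mir7036b in Add1 had 10 and 12 counts, or 4.25 and 3.83 CPM (4.04 ± 0.295, SD, n = 2). Mir6936 and Mir7036b are the 2 of these 4 that overlap an exon of some transcript, and the part of exon reads in their counts was not tested. The exact Poisson 95% intervals in replicate 1 ran from 3.88 to 11 CPM for Mir6936, 4.86 to 12.6 for Mir6944, 2.94 to 9.44 for Mir7064 and 2.04 to 7.81 for Mir7036b. All 4 overlapped, so the order of these genes was not resolved at this depth.

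Just under the threshold of 10 counts were members at the 3′ end of an intron. Mir6971 had 8 and 10 counts, or 3.4 and 3.19 CPM. Mir7059 had 7 and 8 counts, or 2.97 and 2.55 CPM, and Mir7069 had 6 and 10, or 2.55 and 3.19 CPM. Mir6900 in Ndufa10, the gene of a subunit of respiratory complex I, had 8 and 6, Mir6951 in Azin1, the gene of antizyme inhibitor, had 6 and 8, and Mir7075 in Terf2, the gene of a telomere-binding protein, had 6 and 6. These are within a few counts of Mir7036b, the lowest member above the threshold. Replicate 2 alone had 7 members at 10 counts or more and replicate 1 alone had 4.

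The 15 members that fill an intron, the form that needs no trimming, held 38 counts in replicate 1 and 41 in replicate 2, and Mir6944 alone gave 19 and 12 of these. Mir7091 in Dnase1l1, the gene of a DNase I relative, had 5 and 8 counts, Mir7068 in Cherp had 3 and 7, and Mir6958 in Dennd6b had 3 and 5. Mir7088 in Mst1, the gene of the liver-secreted macrophage stimulating protein, had 3 and 3, and Mir7070 in Fbxw9 had 1 and 3. Those 6 and Mir7082, with 1 and 1, are the 7 with a count in each library. Mir7018 in Hspg2, the gene of perlecan, had 2 and 0. Mir6970 had 1 and 0, and Mir6981 and Mir7080 had 0 and 1. Mir6923 in the embryonic myosin gene Myh3, Mir6974 in the lymphotoxin gene Lta, Mir7058 in the T cell adaptor gene Lat and Mir7060 in Fbrs had none in either library. Together the 15 stood at 16.1 and 13.1 CPM, and 1 of 15 was detected; with both ends allowed 20 bases, 2 were.

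By place, a count in either library was found for 11 of the 15 intron-filling members (73.3%) and for 101 of the 148 at an intron's 3′ end alone (68.2%). A count in each was found for 7 (46.7%) and 54 (36.5%). The 148 together stood at 79 and 88.7 CPM. Within them, a count in each library was found for 20 of 41 members with at most 100 bases before the hairpin (48.8%), for 25 of 65 with more than that and at most 1000 (38.5%) and for 9 of 42 with over 1000 (21.4%). These shares are a description over genes, which share 2 libraries, and were not tested. The tables give 1 count per gene, so where on the hairpin the reads lay was not analysed here, and reads from the host's transcript over the same bases could not be told from reads of the mature arms.

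Of 4 earlier-named microRNAs of the same kind measured here, Mir1981, Mir877 and Mir702 had higher levels than every member and Mir1224 did not. The hairpins of Mir1981, a whole intron of Marc2, and Mir877, a whole intron of Abcf1, are set out for comparison with those of the members, with the intron's first 2 and last 2 bases in capitals.
Mir1981, chr1:184822407-184822488, minus strand: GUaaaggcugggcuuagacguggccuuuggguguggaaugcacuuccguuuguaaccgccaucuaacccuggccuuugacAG
Mir877, chr17:35960730-35960814, minus strand: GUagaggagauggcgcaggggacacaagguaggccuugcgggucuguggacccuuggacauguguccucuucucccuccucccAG
Mir1981 had 454 and 615 counts (195 ± 2.44 CPM, SD, n = 2) and Mir877 had 157 and 207 (66.4 ± 0.439 CPM). Mir702, at an intron of Plod3, had 28 and 52 counts. Mir1224, also a whole intron of 85 bases, had 3 and 2 counts, no more than many members. Mir1225 and Mir1226 were not found among the annotated microRNA genes counted here, so they have no values. Of the 8 genes outside the range that fill an intron, 3 had at least 10 counts in each library, against 1 of the 15 members.

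**Figure D4:**
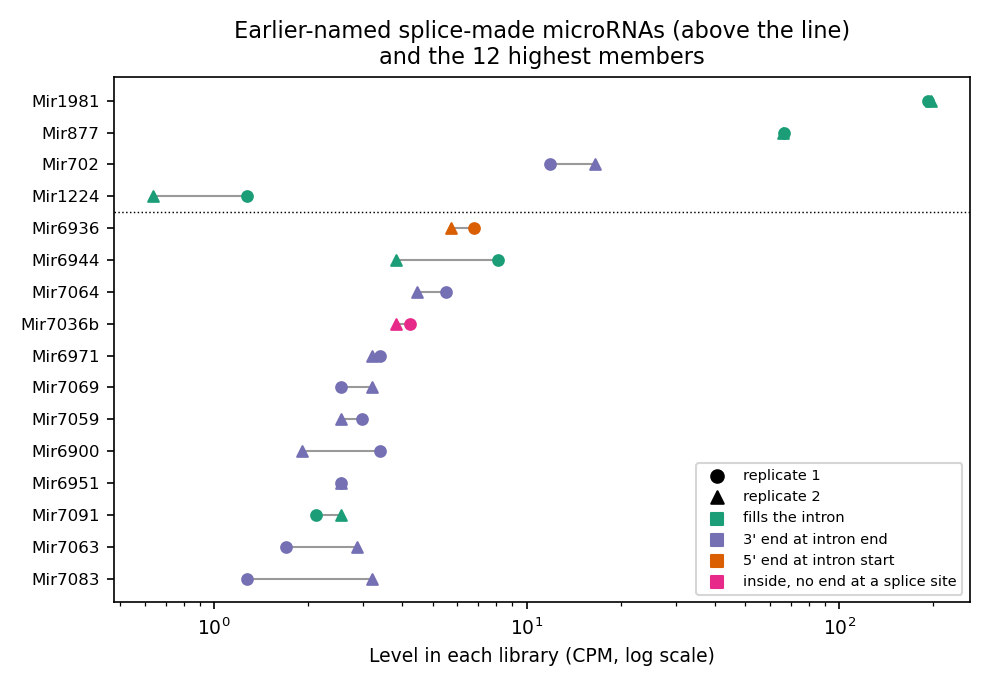
Level (CPM, log axis) in replicate 1 (circles) and replicate 2 (triangles) of 4 earlier-named genes (Mir1981, Mir877, Mir702 and Mir1224) above the dotted line and of the 12 members with the highest means below it, coloured by place in the intron. The members lie between 1.27 and 8.07 CPM, and Mir1981 and Mir877 lie above all of them.

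Detection was also set out by the number in the gene symbol. Any count was found for 69.1% of the members, for 71.4% of genes numbered 1 to 999, for 57.3% of those numbered 1000 to 2999 and for 69.7% of those numbered 3000 to 5999. At least 10 counts in each library were found for 55.9%, 20.7% and 20.5% of those genes, against 2.29% of the members. The genes numbered 6000 to 6899 had any count in 14.6% and the threshold in 5.83%. The genes numbered 7100 to 8120 had any count in 52.6% and the threshold in 7.37%, and 10.5% of them ended at an intron's 3′ end, against 93.1% of the members. These bands differ in what they hold: a stretch of 20 bases was shared with another hairpin by 3 members (1.71%), Mir6970, Mir7065 and Mir7094-2, and by 920 of the other microRNA genes (53.5%). Among the 473 other genes with a same-strand host and no shared stretch, any count was found for 66.8%, at least 1 in each library for 55.8% and at least 10 in each for 35.3%. The share at 10 counts was thus also above that of the members in genes without such copies. The part that copies or the place in the intron have in these shares was not tested.

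**Figure D5:**
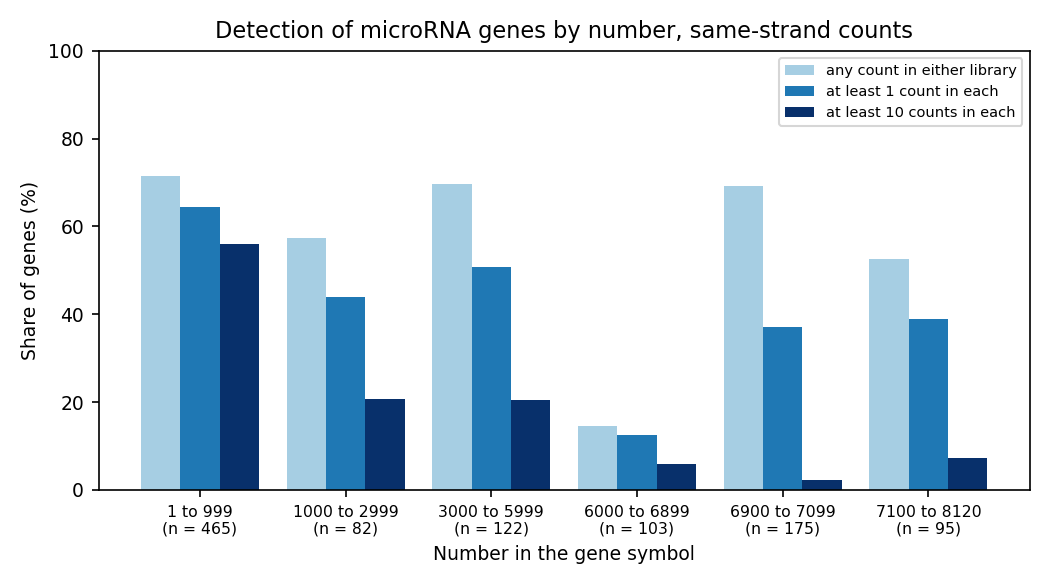
Bars give the share of microRNA genes (%) with any count in either library, with at least 1 count in each and with at least 10 counts in each, by the number in the gene symbol. The genes numbered 6900 to 7099 (n = 175) reach 69.1%, 37.1% and 2.29%.

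None of the 4 members with at least 10 counts in each library differed between the replicates after adjustment. A two-sided exact binomial test of the counts against the library totals, with Benjamini-Hochberg adjustment over all 332 genes tested, called 139 genes (41.9%), 61 higher in replicate 1 and 78 higher in replicate 2. It compares these libraries, not conditions. Mir6944 had a ratio of replicate 2 to replicate 1 of 0.475 (exact 95% interval 0.21 to 1.03, exact p = 0.0456, adjusted p = 0.0946), and it was the only one of the 4 with an unadjusted p under 0.05. Mir6936 had a ratio of 0.845 (0.407 to 1.77, exact adjusted p = 0.841), Mir7064 of 0.809 (0.353 to 1.87, exact adjusted p = 0.819) and Mir7036b of 0.902 (0.357 to 2.33, exact adjusted p = 0.9). The intervals leave room for a change of more than 1.5 times in either direction for the last 3, so equal levels were not shown. Over the 65 members with at least 1 count in each library, none was called either and 1 had an unadjusted p under 0.05. Many of these 65 had so few counts that no split of them could have been called, so this shows nothing on equal levels. Members without a count in 1 of the libraries were outside this set. Of the members too low for the test at 10 counts, Mir7083 in Dock6 had 3 and 10 counts with a ratio of 2.5 and an interval of 0.645 to 14.2.

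Reads on the opposite strand of the members were few. There were 7 in replicate 1 and 3 in replicate 2, which is 2.65% and 0.836% of the members' counts on either strand, against 9.6% and 10.3% over all genes. They fell on 6 members, and the other 169 had none. Mir7071 in Heatr3 had 4 opposite-strand counts in replicate 1 and 0 in replicate 2, beside 2 and 4 on its own strand. Mir6953 in Grina had 0 and 2. Mir7036b, Mir7091, Mir6998 and Mir7034 had 1 each.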

How the data were processed

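The deposited tables give, per the file layout, whole-number counts of reads per Ensembl gene for any strand, the gene's strand and the opposite strand, made by the authors on mm10; reads were from RNA under 30 bases per the labels. The aligner, its settings and the annotation release were not given in the sources used here. Reads mapping to several places, 34.01% and 33.07%, were set apart in the tables, as were unmapped reads (18.61% and 17.74%) and reads on no gene (10.57% and 10.37%), and none entered a total. Symbols, introns and hairpins came from GENCODE M21 (1894 of 1973 IDs matched, 79 did not). CPM used the same-strand total. A hairpin end within 5 bases of an intron end counted as at it. A gene reaching 10 counts in both libraries was called detected and was compared between them by exact binomial tests (SciPy 1.17.1, Python 3.11.15). Size factors of edgeR 4.0.16 (TMM) and DESeq2 1.42.0 served as other scalings. The test was run on simulated Poisson counts. These hold counting error only, so they cannot show how often it calls genes between real libraries that differ beyond that. Folding used RNAfold 2.7.2. Mature sequences came from RefSeq.

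Named were members with at least 10 counts in each library, all intron-filling members with that count, the 3 just below it, any called different, the 3 with most opposite-strand counts (ties included) and 6 earlier-named genes outside the range; other members were chosen after their values were seen, as were the alternatives for the 3′ end and the opposite strand. The members and lists were chosen with earlier results of these data known.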

Additional observations from a re-analysis of the deposited data

Results flagged for a closer look

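Mir7071 had 4 opposite-strand counts in replicate 1, a strand that the comparisons above do not use. It had 0 on that strand in replicate 2 and 2 and 4 counts on its own strand. Mir6991, with 4 and 0 counts on its own strand, had exact Poisson intervals of 0.463 to 4.351 CPM and 0 to 1.178 CPM. These intervals overlap, but overlap is not a test, and the binomial comparison took only genes with counts in each library. Whether 4 counts against 0 differ was therefore not tested. No other member had more than 2 opposite-strand counts in a library.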

How the results depend on the processing

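Of 33 alternatives, 22 left a count within 1.5 times or the summed level within 1 SD of the libraries, and 11 moved one of them further. The 4 detected members became 65 with at least 1 count in each library, 27 with at least 3 and 0 with at least 30, and were 4 to 7 with 1 library left out. The 15 intron-filling members became 32 with both ends within 20 bases and 167 with at least 1 end within 5 bases, and stayed between 14 and 18 at 0, 2 and 10 bases. The 1 detected member among them became 7 with at least 1 count in each library and 2 with 20 bases allowed. The summed level of 111.4 CPM became 124.3 without the highest gene in the total and 102.1 with counts regardless of strand, and was 109.2 to 113.6 with 1 library left out. The 10 opposite-strand counts became 3 to 7 with 1 library left out. No member was called different between the libraries with 1 count as the minimum, with TMM or DESeq2 scaling or regardless of strand. At a minimum of 30 counts no member was left to test. That setting is counted among the 22 but could not have moved. Depth limits every single-member value: 1 count is 0.4248 or 0.3192 CPM. No paired analysis was possible because there was 1 group.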
